A study of Mus musculus with 2 samples.

Results

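Colony-stimulating factors and lymphoid cytokines that epithelial cells can make were examined in CMT93 cells, with and without lipopolysaccharide (LPS), the glycolipid of the outer membrane of Gram-negative bacteria. The 10 genes are Csf1, Csf2, Csf3, Il34, Kitl, Tslp, Il7, Il15, Il23a and Il12a, out of 34761 gene names on the array. The genes were chosen with earlier results of these data known. Their probes were found by symbol and each was used, which gave 12 probes on 30 spots. CMT93 is an established carcinoma line from the rectum of a C57BL/ICRF mouse, 19 months old per the labels. The groups are control cells and cells treated with LPS at 3 µg/mL for 24 h, with 1 one-colour array each, on 1 slide, and both were grown in DMEM. The share of the 59305 non-control spots that stood well above background was 55.8% with control and 54.7% with LPS. The labels repeat the treatment text on both samples, so the titles decide which array is the control. With 1 array a group there is no replicate check on any difference and no test between the groups.

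Colony-stimulating factors are secreted proteins that drive the production, survival and activation of myeloid cells. Csf1 and Il34 encode alternative ligands of one receptor on macrophages, Csf3 drives neutrophil production, Csf2 acts on granulocytes, macrophages and dendritic cells, and Kitl encodes stem cell factor, the ligand of the receptor tyrosine kinase Kit. Il7, Il15 and Tslp encode cytokines through which epithelium supports or instructs lymphocytes, innate lymphoid cells and dendritic cells, while Il23a and Il12a encode the specific chains of IL-23 and IL-12, made mostly by myeloid cells. In many cell types NF-kB, which LPS activates through Toll-like receptor 4, is known to induce several of these genes.

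The sequences that follow show what reads the largest differences: a 30-base stretch of each of the 3 Csf1 probes and of the Csf3 probe, as given in the array files. Probes 2 and 3 of Csf1 overlap by 31 bases, and capitals mark bases inside that overlap. The stretches of the overlap shown for each are different parts of it, so the capitals do not match letter for letter. These probes are not separate readings of the transcript.
Csf1 probe 1, bases 1 to 30: tgtggggcttacttagccttctggttacag
Csf1 probe 2, bases 17 to 46: TGTCATATGTTGAGCttgtagtctattaaa
Csf1 probe 3, bases 15 to 44: tcacattagttttaaCAGCTGCATCATATA
Csf3 probe, bases 1 to 30: gggggacaagacatccctgtttaatattta

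Of the 10 members, 5 were well above background on both arrays, which is called measured here: Csf1, Csf3, Il34, Il15 and Kitl. Another, Il7, was so on the control array only, and Csf2, Tslp, Il23a and Il12a on neither. Over all genes on the array 58.6% were measured. Among the 5 measured members, Csf3 and Csf1 were higher with LPS by 2-fold or more, none was 2-fold lower and 3 were neither. Over the 20380 measured genes 1.45% were at least 2-fold higher and 0.574% at least 2-fold lower. Since the members were chosen with earlier results known, setting them beside these shares is a description only. The median log2 difference was 0.36 over the 5 members and -0.03 over all measured genes. Fewer cells making a transcript and less of it per cell cannot be told apart in such bulk RNA.

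**Figure D1:**
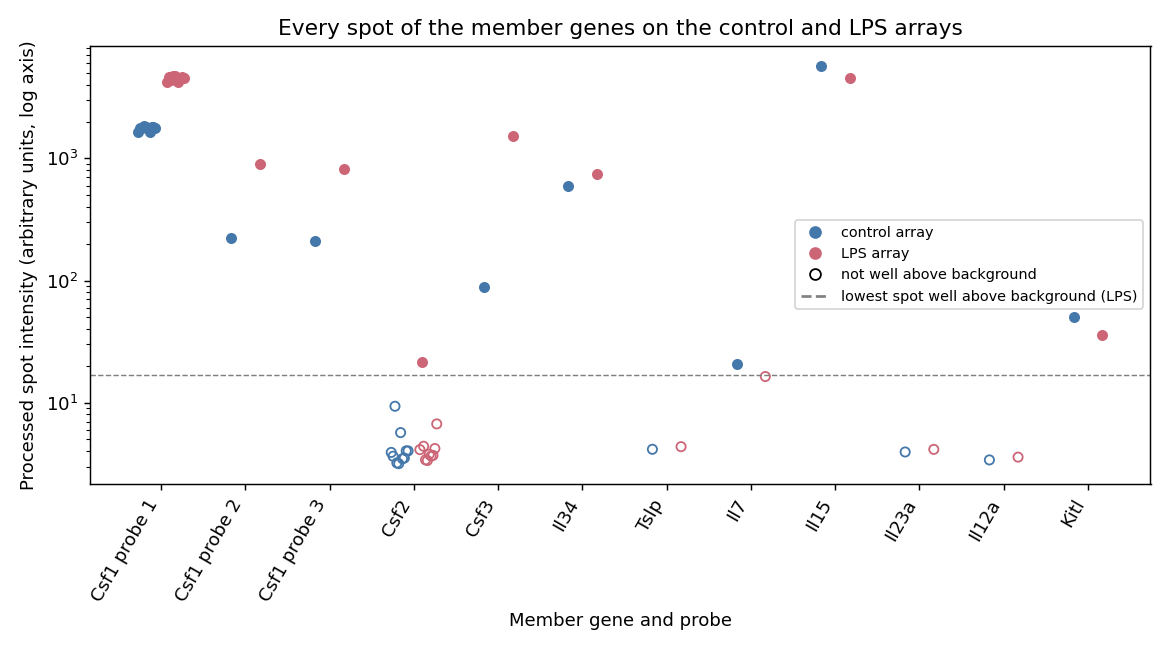
Processed intensity (arbitrary units, log axis) of every spot of the 10 genes on the control array (blue) and the LPS array (red). Filled points are spots well above background, open points are not, and the dashed line marks the lowest well-above spot of the LPS array at 16.9. Csf3 and all Csf1 spots are higher with LPS, while Csf2, Tslp, Il23a and Il12a lie at the bottom of the scale apart from 1 Csf2 spot.

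Csf3, which encodes granulocyte colony-stimulating factor, had the largest difference of the members. Its single probe, at chr11:98564614-98564673 (mm9), read 89.3 with control and 1535 with LPS. Both values were well above background, and the control value was the dimmer by far. The log2 difference was 4.14 ± 0.13 after scaling, 17.6-fold higher with LPS. In order of size it was number 16 from the top among all 20380 measured genes. With normexp background correction, which shrinks ratios of dim spots, it was 3.39.

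Csf1, which encodes macrophage colony-stimulating factor, was higher on all of its probes. Probe 1, at chr3:107544333-107544392 (mm9), was printed 10 times. Its spots read from 1639 to 1851 on the control array with a median of 1775, and from 4232 to 4742 on the LPS array with a median of 4567. The spots of the arrays did not overlap. The log2 difference over these spots ranged from 1.36 to 1.42, with a mean of 1.40 ± 0.02 (SD over 10 spots of 1 array pair, so spread within the slide only). That is 2.63-fold higher and number 174 from the top among the measured genes.

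The other Csf1 probes are listed for a different transcript and gave a larger difference. Csf1 is known to make transcripts with alternative 3′ ends. The files list probe 1 under 2 RefSeq transcripts, among them transcript variant 1, and list probes 2 and 3 under transcript variant 3 alone. Probes 2 and 3 lie 4.2 kb from probe 1, at chr3:107548521-107548580 and chr3:107548550-107548609 (mm9). Whether these positions are coding or untranslated was not analysed here. Probe 2 read 222.8 with control and 894.6 with LPS, a log2 difference of 2.04 ± 0.09. Probe 3 read 212.7 and 816.2, a log2 difference of 1.98 ± 0.09. Both probes were thus about as far apart between arrays as each other, near 4-fold, and further than probe 1.

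The gap between the Csf1 probes was larger than the spread between spots. Probes 2 and 3 exceeded probe 1 by 0.64 and 0.58 on the log2 scale, and by 0.43 and 0.35 with normexp. Gaps of this size are common among genes that differ between these arrays. Over 5869 genes with several measured probes the median gap was 0.13, and 6.66% had a gap at least as large as that of Csf1. Over the 81 of them that were at least 2-fold different the median gap was 0.95, and 63.0% had a gap as large. Probes 2 and 3 were dimmer than probe 1, and the part of that in the gap was not tested.

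**Figure D2:**
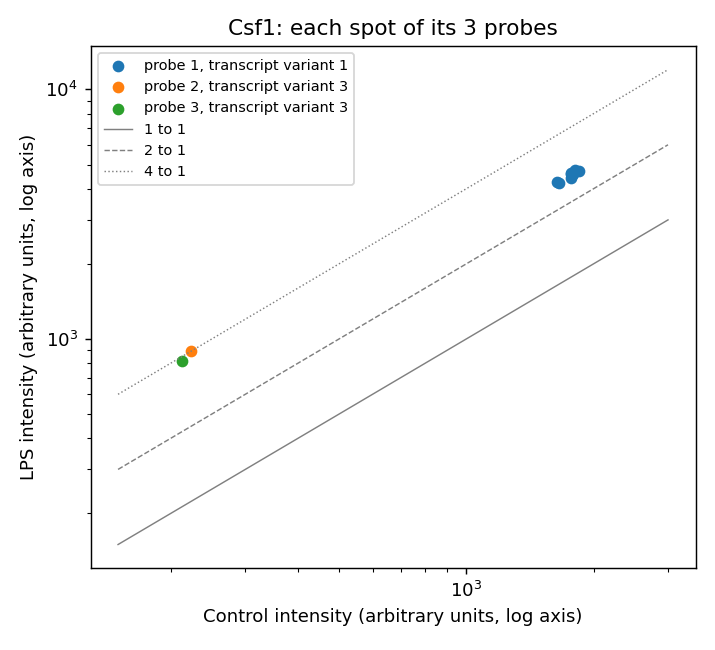
Unscaled LPS intensity against control intensity (arbitrary units, log axes) for each spot of the 3 Csf1 probes, with lines for ratios of 1, 2 and 4. The 10 spots of probe 1 lie together between the lines for 2 and 4, and the spots of probes 2 and 3 lie near the line for 4.

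Il34, which encodes the alternative ligand of the Csf1 receptor, differed little. Its probe, at chr8:113265835-113265894 (mm9), read 599.5 with control and 749.7 with LPS. The log2 difference was 0.36 ± 0.06, 1.28-fold, and lay between 0.33 and 0.41 over the ways of processing. It was larger than the spread between spots and under 2-fold. The 2 ligands of this receptor thus had log2 differences of 1.40 and 0.36.

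Kitl was the lowest of the measured members. Its probe, at chr10:99558962-99559021 (mm9), read 50.03 with control and 36.1 with LPS, both dim. The log2 difference was -0.43 ± 0.16, 1.35-fold lower, and it was only -0.15 with normexp. The central range of all measured genes, from the 5th to the 95th percentile, ran from -0.45 to 0.47, and Kitl lay inside it, as did Il34 and Il15.

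Il15, which encodes a cytokine that maintains natural killer cells and intraepithelial lymphocytes, was bright on both arrays. Its probe, at chr8:84858403-84858462 (mm9), read 5730.5 with control and 4578.8 with LPS. The log2 difference was -0.29 ± 0.04, 1.22-fold lower, and lay between -0.30 and -0.26 over the ways of processing. It exceeded the spread between spots, which says nothing of the spread between cultures.

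Il7, which encodes a survival factor of lymphocytes, was at the edge of detection. Its probe, at chr3:7573207-7573266 (mm9), read 20.8 on the control array, which was well above background, and 16.4 on the LPS array, which was not. The lowest spot well above background read 16.9 there. By this floor Il7 was at least 1.20-fold lower with LPS. With normexp it was 1.05-fold lower, which is its plain difference. By the looser flag for signal above background it was above it on both arrays.

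Csf2, which encodes granulocyte-macrophage colony-stimulating factor, was not detected well above background as a probe. It too was printed 10 times, with a probe of 60 bases whose listed position, chr11:54060772-54060799 (mm9), covers 28 of them. On the control array the spots read from 3.17 to 9.35 with a median of 3.78, and none was well above background. On the LPS array they read from 3.36 to 21.5 with a median of 3.95, and 1 of the 10 was well above background. That spot carried the software's outlier flag, as did 2 spots of the control array, and the 7 others were kept. On each array 8 of the 10 spots held a surrogate value. No fold is given, since the probe was below background on both arrays.

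The other 3 members were at the bottom of the scale on both arrays. Tslp, which encodes thymic stromal lymphopoietin, an epithelial cytokine that acts on dendritic cells, read 4.15 with control and 4.36 with LPS. Il23a read 3.95 and 4.14, and Il12a 3.40 and 3.58. Each was a single spot that held a surrogate value, so these numbers carry no order and no fold. The Il12a probe has the lowest GC content of the 12 probes, at 16.7%, where the others lie between 35.0% and 55.0%. Such signals bound neither absence of the transcript nor a change in it. The positions are chr10:127733766-127733825 for Il23a and chr3:68502346-68502405 for Il12a (mm9).

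**Figure D3:**
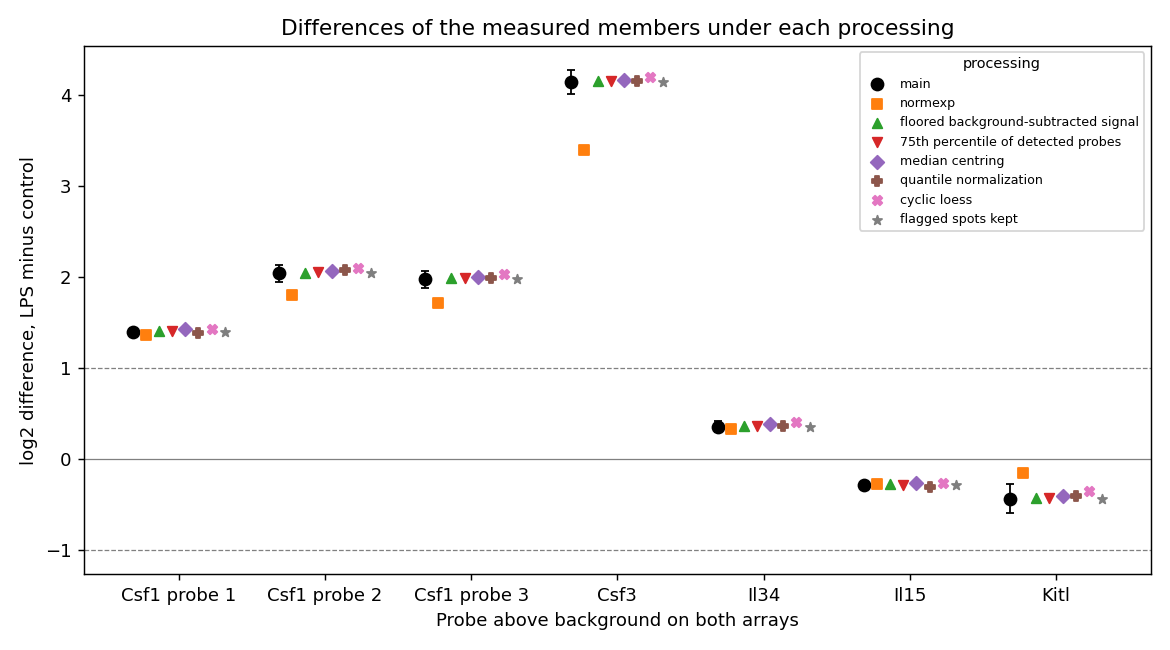
Log2 difference (LPS minus control) of each probe measured on both arrays, as reported (black, with the SD over repeated spots of like level) and under 7 other ways of processing (colours). Csf3 and the Csf1 probes stay above the dashed line at 1 throughout, with normexp lowest for each of them, and Il34, Il15 and Kitl stay between the dashed lines at -1 and 1.

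Promoter sequence was at hand for 4 of the 10 members, Csf1, Csf2, Il12a and Kitl, and not for Csf3. The 250 bases before the RefSeq start were searched on both strands for the consensus sites of NF-kB and CK-1, a cytokine promoter element, both by name, for AP-1 (TGANTCA) and for C/EBP (TTGCNNAA). Csf1, which was higher with LPS, and Kitl, which was not, each held 1 NF-kB match, from -154 to -145 and from -152 to -143 relative to the start. Csf2 held none, and 1 C/EBP match, and neither of the 2 Il12a starts held any of the 4. None of these windows held an AP-1 or CK-1 match. Of 32851 such RefSeq windows, 7.25% held the NF-kB consensus, 9.56% the C/EBP letters, 6.75% the AP-1 letters and 0.697% the CK-1 consensus. A match describes letters only, and bases outside these windows, on either side, were not searched. A window without a match thus does not show that the gene lacks the site. Whether matches bear on the differences between the arrays was not tested. The windows of Csf1, at chr3:107760470-107760719 on the minus strand, and of Csf2, at chr11:54249900-54250149 on the minus strand (both RefSeq on GRCm38.p6), are shown because Csf1 was higher with LPS while Csf2 was at background on both arrays, with the NF-kB match of Csf1 and the C/EBP match of Csf2 in capitals.
Csf1: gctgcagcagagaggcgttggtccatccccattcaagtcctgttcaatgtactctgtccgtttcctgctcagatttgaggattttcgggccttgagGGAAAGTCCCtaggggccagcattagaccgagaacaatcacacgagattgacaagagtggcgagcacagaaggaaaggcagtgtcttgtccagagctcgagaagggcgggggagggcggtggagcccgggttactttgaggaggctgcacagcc
Csf2: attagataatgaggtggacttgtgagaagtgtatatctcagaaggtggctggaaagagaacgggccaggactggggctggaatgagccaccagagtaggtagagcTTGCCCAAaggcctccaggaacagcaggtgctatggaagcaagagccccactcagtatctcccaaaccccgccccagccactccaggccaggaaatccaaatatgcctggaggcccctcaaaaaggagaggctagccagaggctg

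Among the receptors of these cytokines, Kit was lower with LPS and Csf2ra higher. Of 17 receptor genes 10 were measured, a share near the 58.6% of all genes, 2 were well above background with LPS alone and 5 in neither sample. None of the 10 was at least 2-fold higher and 1 was 2-fold lower, against 1.45% and 0.574% of all measured genes. Their median log2 difference was -0.01. The lower one was Kit, the receptor of Kitl, which read 2789 with control and 1104 with LPS, a log2 difference of -1.30 ± 0.05. Its ligand Kitl was at -0.43. Csf2ra, which encodes the ligand-specific chain of the Csf2 receptor, read 4.78 on the control array, not well above background, and 86.7 on the LPS array. It was at least 5.58-fold higher by the floor of the control array, and at least 2.17-fold higher with normexp, on 1 probe. Il2rg, the common chain shared by the receptors of Il7 and Il15, was 1.41-fold higher, and 1.15-fold higher with normexp. Its control value of 16.2 lay above the control floor of 15.9. The 1.41-fold is thus its plain difference and not a lower limit.

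By brightest probe, the receptors of Csf3 and Csf1, the members higher with LPS, were within 0.1 of 0 on the log2 scale. Csf3r, the receptor of Csf3, was very bright at 62531 and 58311, with a log2 difference of -0.07 ± 0.03, on 1 probe. Whether this probe also reads other transcripts was not tested. Csf1r, the receptor of Csf1 and Il34, read 1575 and 1587, with a log2 difference of 0.05 ± 0.05. All 3 Csf1r probes were measured, with log2 differences from -0.0004 to 0.32. Probes of these ligands and receptors were thus well above background on both arrays. Il15ra, which presents Il15 on the cell surface, was at 0.10 ± 0.03, and Crlf2, the specific chain of the Tslp receptor, at 0.12 ± 0.03. The other Il15ra probe, not measured on both arrays, was at 0.77. Il7r and Il2rb were among the listed receptor genes well above background on neither array.

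Among 16 partner chains and related cytokines 6 were measured, where 58.6% of all genes were. None of the 6 was 2-fold different. Over all measured genes 1.45% were at least 2-fold higher and 0.574% at least 2-fold lower, so none among so few is near those shares. Their median log2 difference was 0.10. Il12b, the chain that Il23a and Il12a need to form IL-23 and IL-12, was well above background on neither array. Lif was highest at 0.69 ± 0.14 and Il11 lowest at -0.10 ± 0.03. Il3, the neighbour of Csf2 on chromosome 11, was dim at -0.03 ± 0.16. The 14 JAK-STAT genes through which most of these receptors signal had 12 measured members, with a median of 0.25. None of the 12 was 2-fold different, which is also near the shares over all measured genes. They ran from Socs1 at -0.69 ± 0.11 to Cish, a STAT5 target that restrains cytokine signalling, at 0.67 ± 0.05.

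Of 16 transcription factor genes known to act on cytokine promoters, 13 were measured, where 58.6% of all genes were. Of the 13, 4 were at least 2-fold higher, against 1.45% of all measured genes. None was 2-fold lower, against 0.574%, and the median was 0.54. The list was chosen with results of these arrays known. Nfkbia, the NF-kB inhibitor and target, was at 2.73 ± 0.03, Cebpd, a C/EBP factor, at 2.41 ± 0.03, Nfkbiz at 1.41 ± 0.08 and the NF-kB subunit gene Relb at 1.26 ± 0.05. Another Relb probe gave -0.05. The AP-1 genes Jun, Fos and Fosl1 were at -0.66 ± 0.04, -0.55 ± 0.05 and -0.43 ± 0.08. Junb, also an AP-1 gene, went the other way at 0.30 ± 0.06. Cebpa and Batf3 were well above background with control alone. Of 11 genes whose proteins bind or destroy cytokine transcripts, all were measured, with a median of 0.10. Of these 1 was 2-fold higher, against 1.45% of all measured genes, and none lower, against 0.574%. That one was the RNase gene Zc3h12a at 4.17 ± 0.16, and Tia1 was lowest at -0.16 ± 0.07. With normexp Zc3h12a was at 2.81, against 3.39 for Csf3. As scaled here, Zc3h12a, Slc28a3 and Tnf were the 3 named genes nearest to Csf3, at 4.17, 4.03 and 4.03. For Kitl, the nearest were Sesn1, Gcnt3 and Osbpl1a, within 0.001 of it. Over 2 arrays such likeness is that of a single number.

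Csf1 and Kitl are made in membrane-bound forms that proteases release. Of 7 genes listed for this shedding, not all of them proteases, 6 were measured, where 58.6% of all genes were. Their median was 0.25. Of these 1 was 2-fold higher, against 1.45% of all measured genes, and none lower, against 0.574%. The higher one was Timp3, which encodes an inhibitor of the main sheddase Adam17, at 1.03 ± 0.04, at the edge of 2-fold. Adam17 itself was at 0.23 ± 0.11 and Adam10 was lowest at 0.03 ± 0.03.

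**Figure D4:**
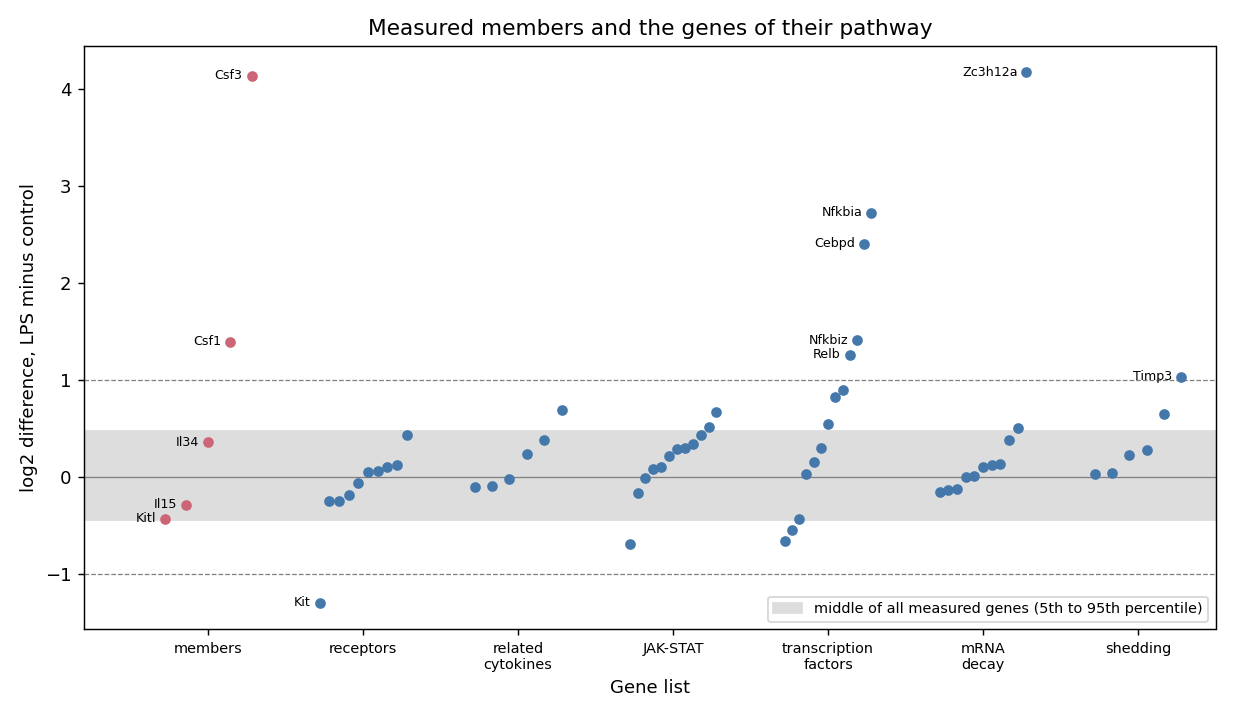
Log2 difference (LPS minus control) of each measured gene among the members (red) and 6 lists of their pathway (blue), with the band from the 5th to the 95th percentile of all measured genes in grey and 2-fold differences as dashed lines. Csf3, Csf1, Nfkbia, Cebpd, Nfkbiz, Relb, Zc3h12a and Timp3 stand above the upper dashed line, and Kit stands below the lower one.

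Markers were read to see which cells the RNA came from. Of 9 epithelial markers 8 were measured on both arrays, with keratins 8, 18 and 19 among them. Cdx2 was well above background on neither. Their log2 differences ran from -0.93 to -0.02, and their summed level, in log2 after scaling, was 10.4 with control and 10.2 with LPS. Their median log2 difference was -0.23, and its part in the differences of the members was not tested. Macrophages, neutrophils, lymphocytes and mast cells are the usual targets of these cytokines. Of 32 markers of these cells 11 were measured, 6 were above background on 1 array and 15 on neither. Over all 34761 genes 58.6% were measured, 674 genes were above on the LPS array only, 948 on the control array only and 12759 on neither. None of the 11 was 2-fold different, against 1.45% higher and 0.574% lower over all measured genes. The 6 on 1 array went both ways. Adgre1, Mrc1 and Ngp were at least 1.95, 1.81 and 1.53-fold higher with LPS, and Ptprc and Itgax at least 3.05 and 1.94-fold lower. Mpeg1 was 1.51-fold higher, which is its plain difference and not a lower limit. The other probe of Adgre1 and of Mpeg1, neither of them measured, was at 0.10. With normexp the values of Adgre1, Mrc1, Ngp and Mpeg1 were 1.29, 1.19, 1.11 and 1.15-fold. Those of Ptprc, the pan-leukocyte marker, and Itgax were 1.49 and 1.29-fold. The summed level, control first, was 4.22 and 4.32 for the macrophage list and 5.06 and 4.90 for neutrophils. It was 2.89 and 2.85 for lymphocytes, and -0.98 and -0.67 for mast cells. A single bright gene made up most of 3 of these sums, so they are not levels of the whole lists. These were Itgam at 7516 and 7780, Ly6g at 17504 and 15098, and Tpsb2, a mast cell marker, at 264 and 324. Lyz2, Tyrobp and Laptm5 were at background on both arrays. Some lymphoid and myeloid markers, such as Cd4 and Itgam, did read as measured, and their part in the differences of the members was not tested. Of 6 fibroblast markers 2 were measured, and of 5 endothelial markers also 2, none 2-fold different. Pdgfra, a fibroblast marker, was well above background with control alone and at least 1.98-fold lower with LPS. With normexp it was at least 1.27-fold lower.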

How the data were processed

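RNA of control and LPS-treated cells was measured on 2 one-colour arrays. Agilent Feature Extraction 10.10.1.1 made the deposited intensity of each spot, per the file headers, by subtracting background and a trend over the slide, and set a surrogate for signals at background. The deposited flag values (other marks of 0 or 1) give outliers and spots well above background.

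Here 223 outlier spots were left out, deposited intensities were put on the log2 scale and scaled to each array's 75th percentile over non-control probes, and spots of a probe were averaged. A gene took its brightest probe. Symbols were updated through a RefSeq table, which matched 28026 of 55677 probes. With 1 array a group no test was run, and precision is limited by the number of arrays. The error after ± is the median SD of the log2 difference over the 40 repeated probes nearest in level on the dimmer array, and covers the slide only.

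The members, lists and naming rule were chosen with earlier results of these data known. All members are named. Of each list, genes at least 2-fold different, those above background on 1 array, or else the extremes, are named. Others are named outside this rule, among them Csf3r, Csf1r, Il15ra, Crlf2, Il7r, Il2rb, Il12b, Il3, Jun, Fos, Fosl1, Junb and Adam17. Cebpa and Batf3 have bounds of 1.12-fold lower and none. The size rule was checked on simulated data. R 4.3.3, limma 3.58.1, Python 3.11.15, numpy 2.4.6, pandas 2.3.3 and matplotlib 3.10.9 were used. Alternatives are given in the closing section.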

Additional observations from a re-analysis of the deposited data

How the results depend on the processing

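The count of 2 members at least 2-fold different stood under each of the 10 alternatives planned for it and with outlier spots kept, a setting added after seeing the data. The looser background flag raised the measured members from 5 to 6, by Il7. No sign of a measured member turned. Normexp moved Csf3 from 4.14 to 3.39 and Kitl from -0.43 to -0.15, and the median over probes moved Csf1 from 1.40 to 1.98. The cause was not tested, except that probes 2 and 3 set that median. Median centring moved Il15 to -0.26. The normexp offset was 50 and the loess span 0.7. The shift in the overall median was under 0.1 in each of them. The looser flag also brought the Csf2ra call in as 2-fold higher, with 12 receptors measured, and Thpo in as 2-fold lower, with 7 related cytokines measured. Dim spots limit Csf2, Tslp, Il23a, Il12a, Il7 and Kitl. No paired analysis was possible because each group has 1 array.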

Other observations

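The genes around the colony-stimulating factors, chosen after their values were seen, gave the following log2 differences (LPS minus control, mm9 positions). Within 100 kb of the Csf3 probe on chromosome 11 lay 9 other measured gene or probe names, from -0.27 to 0.19, and none was 2-fold different. The nearest were Med24 at 1.4 kb with 0.03 and Psmd3 at 7.4 kb with 0.00, against 4.14 for Csf3. Within the same distance of Csf1 lay 3, from -0.30 to 0.15, and of Csf2 also 3, from -0.13 to -0.01, among them Il3.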
